A study of Mus musculus with 6 samples.

Results

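The stretch described here runs from 2 to 100 kb downstream of the Wnt4 promoter on mouse chromosome 4, at positions 136834108 to 136932108 of the mm9 build. It was defined by position alone and holds the Wnt4 body, the gap to the neighbouring gene Cdc42, Cdc42 itself and the start of the next gap. Its members are the DpnII fragment ends that the deposited tables list there, 246 of 369081 listed on the chromosome. Contacts of the Wnt4 promoter with these ends were measured by 4C-seq, which counts the fragments ligated to 1 chosen fragment, the viewpoint, in crosslinked nuclei. The viewpoint end was taken at position 136832108, and "downstream" means higher coordinates, the direction in which Wnt4 is transcribed.

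BC44 and HC11, both established lines of mouse mammary epithelial cells, were profiled with 3 libraries each. No genotype change or drug treatment is named for either line. Both were grown in RPMI1640 with 10% serum and insulin and fixed with 2% formaldehyde for 10 min. EGF at 10 ng/ml was added to HC11 only, so the line and the growth factor cannot be told apart. The labels do not say if replicates were separate cultures, so p-values measure the spread between these libraries, which may be technical. No RNA was measured, so the lines could not be checked against epithelial markers.

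Wnt4 encodes a secreted signalling protein that acts downstream of progesterone in the side branching of mammary ducts. Cdc42 encodes a small GTPase that controls cell polarity and the actin cytoskeleton. In 4C data, contact falls steeply with distance from the viewpoint, because nearby DNA is tethered to it, and stretches that are contacted more or less than their distance would give stand out against that fall. The title of the series names enhancers that loop to Wnt4 as the subject of the study.

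The members were ordinary DpnII ends. Each of the 246 lay on a GATC site. Of the 476 ends that the sequence of the stretch offers, 51.7% were listed. All of them belonged to fragments that also contain CATG, the NlaIII site needed for the second digestion. Of the 305 possible ends in such fragments 246 were listed, and of the 171 in fragments without CATG 0 were. The ends lay on 179 GATC sites, 67 of which had both their ends listed, so neighbouring members can share a site. By annotation, 14 ends were exonic, 122 intronic and 110 intergenic.

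The sequences of 6 ends are given, 3 chosen by their mean share of the reads and 3 by their unadjusted p. Each starts at the GATC of its end and runs 5′ to 3′ into the fragment up to the first CATG, which is the piece that is amplified, with both cutting sites in capitals. They were read from the mm9 genome. The first 3 had the highest mean shares of the reads of the stretch, the first 2 in Wnt4 introns and the third just past the 3′ end of the gene. All 3 had a short way to the first CATG, 39, 38 and 36 bp. The medians were 125 bp in the Wnt4 body and 131.5 bp in the gap.
Wnt4 intron, chr4:136838394-136838436, minus strand: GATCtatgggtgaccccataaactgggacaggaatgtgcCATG
Wnt4 intron, chr4:136847511-136847552, plus strand: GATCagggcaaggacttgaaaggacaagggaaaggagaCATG
Past Wnt4, chr4:136855875-136855914, minus strand: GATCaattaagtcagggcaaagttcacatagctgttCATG

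The other 3 had the lowest unadjusted p among the ends of the stretch tested between the lines. The end with the next lowest, at 136874691, is given by its values only. For the end inside Cdc42 only the coding part is shown, the first 53 coding bases of the gene, so its GATC lies outside the printed run and only CATG is in capitals.
Cdc42 coding exon, chr4:136891942-136891994, minus strand: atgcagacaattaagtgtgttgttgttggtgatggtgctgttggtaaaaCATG
Beyond Cdc42, chr4:136922042-136922104, minus strand: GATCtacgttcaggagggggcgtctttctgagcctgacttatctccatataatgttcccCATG
Beyond Cdc42, chr4:136926602-136926641, plus strand: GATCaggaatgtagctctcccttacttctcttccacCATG

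The libraries held 96690 to 1755373 reads on the chromosome, and 11670 to 95610 of them fell in the stretch, fewest in HC11 replicate 2. The viewpoint end held 40.5% and 44.3% of all reads in replicate 1 of BC44 and HC11 but at most 0.466% in the other 4 libraries, and the position of the primer is not given in the sources used here. The choice of this end therefore rested on replicate 1. Ends within 2 kb of the viewpoint were left out, and results are also given without replicate 1 where that matters. The 95% Wilson interval of a library's read share was at most 0.697 percentage points wide for the stretch and 1.81 points for its parts, and that of its share of captured ends, those with at least 1 read, at most 12 and 26.2 points. These intervals cover counting error only, since reads amplified by PCR without molecular identifiers are not independent molecules.

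The promoter's contacts were lower the farther a part of the stretch lay, in all 6 libraries. The Wnt4 body (136834108 to 136855641, 52 listed ends, the nearest 4.25 kb away) took 52.3% ± 2.22 (SD, n = 6) of the reads of the stretch, the most of any part in every library. The gap between the genes (136855642 to 136875610, 50 ends) took 21.2% ± 2.03, the Cdc42 gene (136875611 to 136913635, 84 ends) 18.1% ± 2.62 and the sequence beyond Cdc42 (136913636 to 136932108, 60 ends) 8.38% ± 1.35. Per listed end, the mean over libraries was 1782 scaled reads (RPM, scaled to 1000000 reads 2 to 400 kb from the viewpoint on both sides) in the Wnt4 body, 747 in the gap, 385.0 in Cdc42 and 249 beyond it.

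Values of a line are given in the order of its replicates 1, 2 and 3 throughout. The Wnt4 body had 1690, 1834 and 1540 RPM per listed end in BC44 and 1602, 2194 and 1830 in HC11. The lines overlapped there, with the shallowest library highest. Cdc42 had 339.8, 287 and 319 RPM per end in BC44 and 382, 486 and 496 in HC11, without overlap. Beyond Cdc42 the values were 219.7, 214 and 171 in BC44 and 287, 297 and 303 in HC11, also without overlap. In the gap they were 727, 758 and 738 in BC44 and 694, 886 and 678 in HC11, with HC11 on both sides of BC44.

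**Figure D1:**
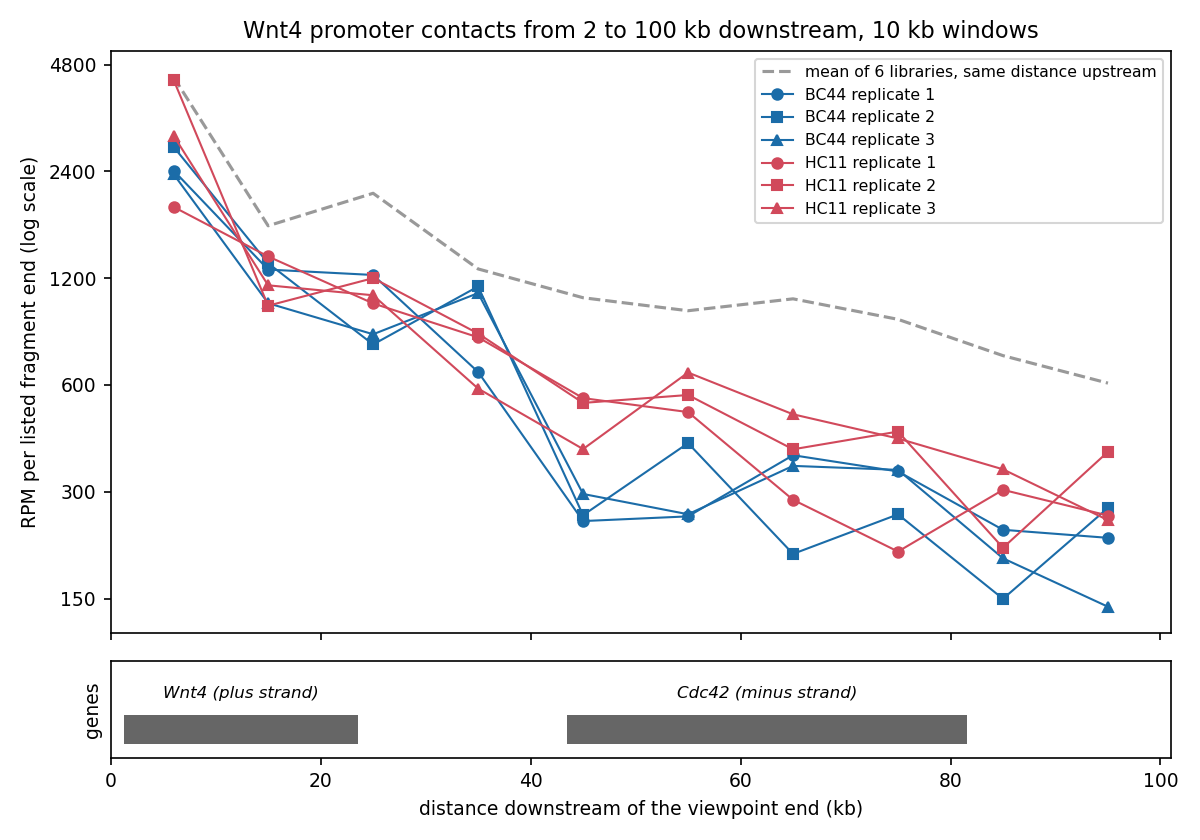
RPM per listed fragment end (log axis) in 10 windows from 2 to 100 kb downstream of the viewpoint end, with 1 line per library (BC44 blue, HC11 red), the mean of all libraries at the same distances upstream as a grey dashed line, and the 2 genes to scale below. Between the windows 30 to 40 and 40 to 50 kb away the BC44 libraries drop 2.63 to 4.41-fold and the HC11 libraries 1.48 to 1.57-fold.

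The share of ends captured in every library was also lower from part to part, while that of ends with no read was highest in the gap. In the Wnt4 body 41 of 52 ends had reads in all 6 libraries (78.8%) and 4 in none. In the gap these counts were 25 and 12 of 50, in Cdc42 24 and 15 of 84, and beyond Cdc42 13 and 7 of 60. Over the stretch, 103 ends were captured in every library and 38 in no library. Ends without any read had a median of 122.5 bp to the first CATG and ends captured in every library 138 bp, with median GC contents of 49.6% and 50.6%.

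A few ends carried much of the signal. The 10 highest ends held 25.7% to 37.6% of the reads of the stretch in a library, and 18 to 25 ends held 50% of them or more. Of the 20 ends with the highest mean share, 14 lay in the Wnt4 body, 6 in the gap and 0 in Cdc42 or beyond.

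The end at 136838436, in a Wnt4 intron 6.33 kb from the viewpoint, was the highest. It held 4.77%, 10.1% and 7.02% of the stretch in BC44 and 3.08%, 8.18% and 7.08% in HC11. Both replicate 1 libraries were the lowest of their line. The end at 136847511 followed, with 5.48%, 4.91% and 0.837% in BC44 and 5.20%, 1.83% and 1.98% in HC11, so single libraries differed more than the lines. Next was the end at 136855914, the closest to the 3′ end of Wnt4, with 4.98%, 0.937% and 0.863% in BC44 and 1.69%, 4.09% and 3.10% in HC11.

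The other 5 of the 8 highest ends, at 136837226, 136838542, 136840324, 136840718 and 136847514, all lay in Wnt4 introns and had mean shares of 2.24% to 2.50%. The nearest listed end to the start of Wnt4, at 136836362, held 0.613% to 0.993%. At the lower limit of Cdc42, its 3′ end, the closest end was at 136875713 and held 0.0868% to 2.06%. At the upper limit, where the gene starts, the closest was at 136914285 with 0.089% to 0.40%. Ends nearer to the promoter tended to hold more reads (Spearman's correlation of mean share with distance -0.33 across 246 ends, which share libraries and are not independent), and a shorter way to the first CATG went with more reads (Spearman's correlation -0.25).

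**Figure D2:**
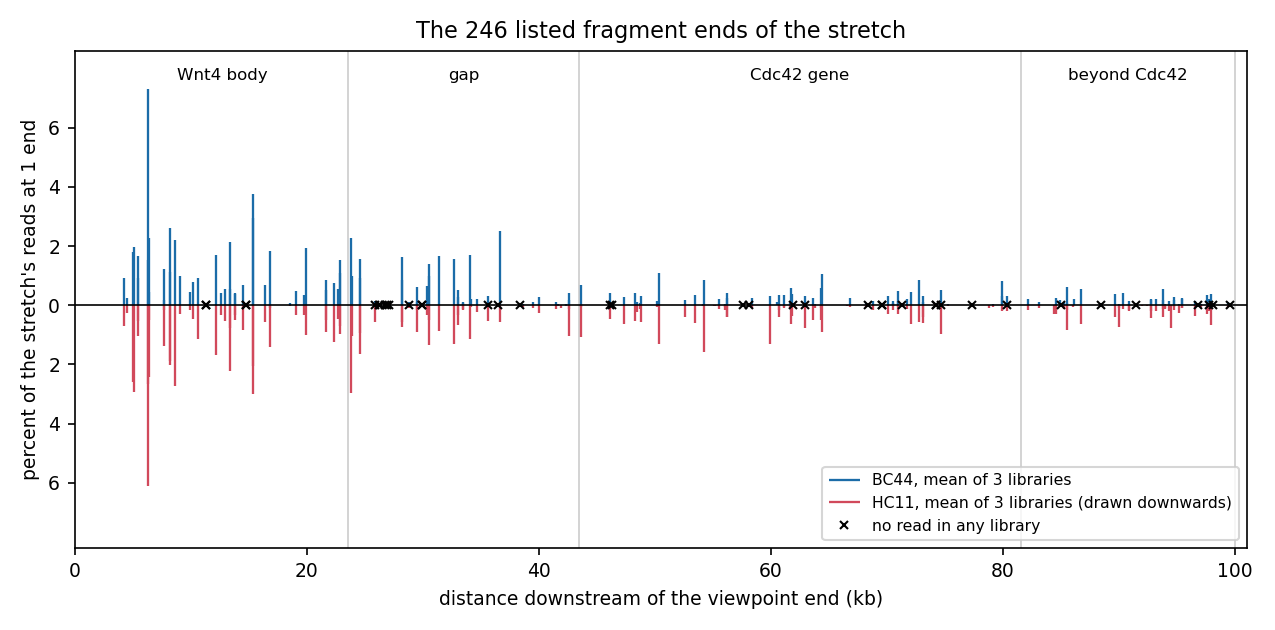
Each vertical line is 1 of the 246 listed ends, placed by its distance from the viewpoint end in kb, with its percent of the reads of the stretch as the mean of 3 libraries, BC44 upwards and HC11 downwards; crosses mark the 38 ends with no read in any library. All 8 highest ends lie within 24 kb, in Wnt4 or just past it.

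The same distances upstream, in intergenic sequence, were contacted more. Per listed end, the stretch had less signal than its mirror image in 6 of 6 libraries, with a mean log2 ratio of -0.93 ± 0.29 (SD, n = 6), or 1.91-fold lower. The two-sided exact sign-flip permutation p was 0.031, the smallest that 6 libraries allow. The direction was known from earlier results of these data, so this p is a description. With captured ends counted in place of reads, the mean log2 ratio was smaller, -0.31. In the window 2 to 10 kb away HC11 replicate 2 lay above 0, at 0.090, and the other 5 libraries below.

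The deficit was present in each part, and differences between parts were not tested. The log2 ratio was -0.71 ± 0.24 (SD, n = 6) in the Wnt4 body, -0.98 ± 0.21 in the gap, -1.33 ± 0.47 in Cdc42 and -1.45 ± 0.37 beyond it, and it lay below 0 in all 6 libraries in each part (exact sign-flip p = 0.031 each, adjusted over 5 tests 0.031). On average 84.6% of ends were captured in the Wnt4 body against 86.7% at the mirrored distances, 64.3% against 84.8% in the gap, 64.1% against 80.9% in Cdc42 and 60.3% against 84.7% beyond it.

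The ratio was less negative in all HC11 libraries than in all BC44 libraries. Over the stretch it was -1.07, -1.11 and -1.27 in BC44 and -0.83, -0.46 and -0.86 in HC11, without overlap, a difference of 0.43 (two-sided exact permutation p = 0.1, the smallest the design allows, adjusted p = 0.175 over 7 measures). The difference was 0.75 in Cdc42, where BC44 had -1.47, -1.87 and -1.76 and HC11 -1.18, -0.61 and -1.07. It was 0.63 beyond Cdc42, 0.33 in the Wnt4 body and 0.31 in the gap, without overlap in any part. In the Wnt4 body and the gap, however, the RPM per listed end of the stretch itself overlapped between the lines. Every upstream window from 10 to 60 kb was lower in all HC11 libraries than in all BC44 libraries. No share over other mirrored regions was computed. With captured ends counted in place of reads, the difference over the stretch was -0.00022 (exact permutation p = 1). Upstream signal enters this ratio: the intergenic block 2 to 100 kb upstream was lower in HC11 in edgeR's quasi-likelihood test (log2 fold change -0.41, adjusted p = 0.0265, 1 of 28 blocks called), and with the replicate number as a block no annotated block passed (smallest adjusted p 0.190).

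**Figure D3:**
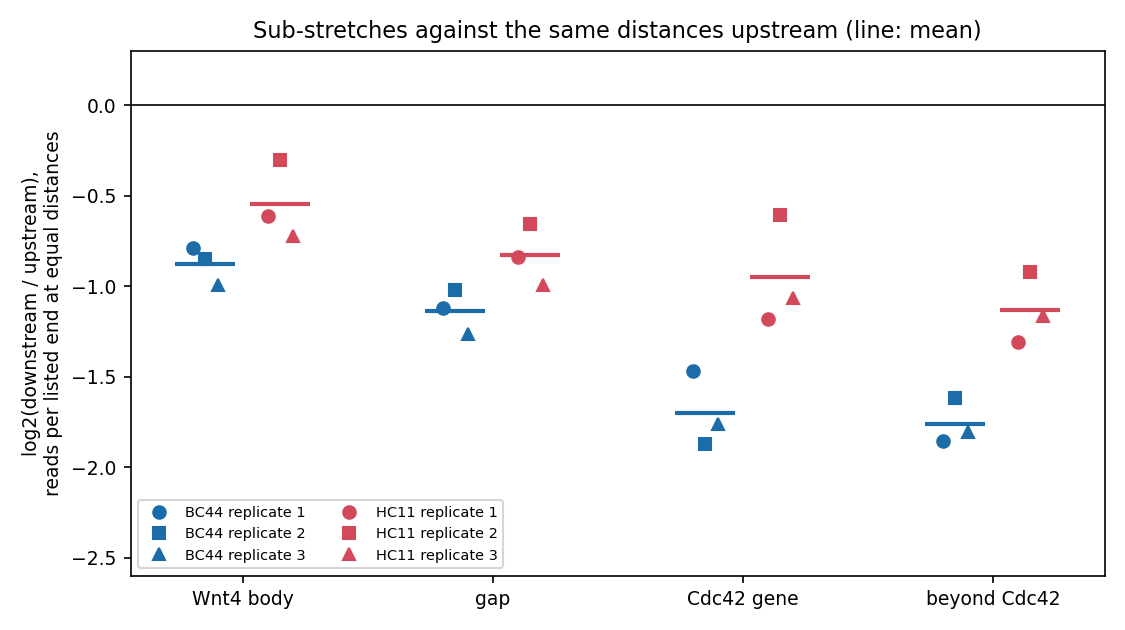
Log2 ratio of reads per listed end in each part of the stretch to that at equal distances upstream, 1 point per library and a bar for the mean of each line (BC44 blue, HC11 red, n = 3 each). All points lie below 0, and in each part the 3 HC11 points lie above the 3 BC44 points.

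In windows of 10 kb, a step within the gap, before Cdc42, separated the lines. From the window 30 to 40 kb away, inside the gap, to the window 40 to 50 kb away, which spans the lower limit of Cdc42, the signal per listed end fell 2.63, 4.41 and 3.68-fold in BC44 and 1.48, 1.57 and 1.48-fold in HC11. The lines did not overlap at this step, and they overlapped at every other step between neighbouring windows of the stretch. In the later window the 10 gap ends already had fewer reads per end than its 11 Cdc42 ends in every library. The gap ends had 92.4, 221 and 233 RPM per end in BC44 and 244, 456 and 342 in HC11, and the Cdc42 ends 389.6, 291 and 353 in BC44 and 829, 605 and 444 in HC11. Upstream the same step was 1.13 to 1.39-fold. Single ends weighed heavily here. The highest end held 18.9% to 35.2% of a library's reads in the earlier window and 23.4% to 42.4% in the later one. How often steps between other windows within 400 kb separate the lines was not counted. The step and the split of its window were picked after the profile was seen and are given without a test. From 40 to 100 kb the windows had 142 to 411 RPM per listed end in BC44 and 204 to 650.3 in HC11.

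As shares of the reads 2 to 400 kb away, the lines overlapped in every window up to 40 kb. The window 2 to 10 kb away held 4.34%, 5.06% and 4.24% in BC44 and 3.43%, 7.81% and 5.44% in HC11, where replicate 2 stood apart. In it the fold change changed sign with 1 library, from a log2 value of 0.21 to -0.17 without HC11 replicate 2. Windows from 10 to 30 kb had log2 fold changes of HC11 over BC44 of -0.14 (SE 0.17) and 0.13 (SE 0.21), which without BC44 replicate 2 were -0.057 and 0.014. The window 30 to 40 kb away, in the gap, had -0.48 (SE 0.27, edgeR adjusted p = 0.548). Without single libraries these 3 windows ran from -0.17 to -0.057, from 0.014 to 0.31 (highest without BC44 replicate 1) and from -0.72 to -0.30 (without BC44 replicates 1 and 3).

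The 2 windows around the 3′ part of Cdc42 had higher shares in every HC11 library. The window 40 to 50 kb away had 0.521%, 0.541% and 0.621% in BC44 and 1.16%, 1.12% and 0.831% in HC11, and HC11 over BC44 was 0.78 (SE 0.29) on the log2 scale. The window 50 to 60 kb away had 0.563%, 0.905% and 0.570% in BC44 and 1.11%, 1.24% and 1.43% in HC11, and HC11 over BC44 was 0.79 (SE 0.29). Neither window passed (edgeR's quasi-likelihood adjusted p = 0.260 for both). None of the 10 windows of the stretch did (0 called, and 0 by DESeq2), against 0% of the 80 windows tested on both sides. In edgeR these 2 of the 10 windows had an unadjusted p under 0.05, against 8 of the 80. These 2 were the only windows of the stretch without overlap, against 16.2% of all windows without overlap and 6.25% with HC11 above.

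Wider windows moved this result across the threshold, and narrower ones did not. With windows of 5 kb, 0 of the 20 windows of the stretch were called in edgeR, and 0 of all 159 (smallest adjusted p 0.289). An unadjusted p under 0.05 was found in 0 of these 20, against 6 of the 159. With windows of 20 kb, the one 40 to 60 kb away (136872109 to 136892108) held 1.08%, 1.45% and 1.19% in BC44 and 2.26%, 2.36% and 2.26% in HC11. Its log2 fold change was 0.82 (SE 0.24), with an edgeR adjusted p of 0.0493, and it was the only 1 of 40 windows that passed. With the replicate block the adjusted p was 0.0301 and 3 of the 40 passed. Leaving out any 1 of the 6 libraries ended the call, with adjusted p between 0.0607 and 0.303, the highest without HC11 replicate 2, although the log2 fold change stayed between 0.69 and 0.90, and replicates 2 and 3 alone gave 0.132.

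The number of captured ends did not follow the reads. Of the 43 listed ends 40 to 60 kb away, 32, 32 and 27 were captured in BC44 and 28, 28 and 30 in HC11, and counting each captured end once gave a log2 fold change of -0.036 (edgeR adjusted p = 0.985). Without the highest end of the window in each library, BC44 still had 0.852%, 1.07% and 1.04% and HC11 1.92%, 2.02% and 1.78%, although the edgeR adjusted p then rose to 0.132.

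Within Cdc42 the lines did not overlap in the 3′ part and overlapped at the start of the gene. The 19 kb from the lower limit, the 3′ part, had 308, 349 and 316 RPM per listed end in BC44 and 554, 533 and 546 in HC11 over 42 ends. The remaining 42 ends had 371, 225 and 322 in BC44 and 211, 439 and 447 in HC11, which overlapped. Within 5 kb of the Cdc42 start the values were 291, 204 and 207 in BC44 and 244, 188 and 212 in HC11 over 24 ends, again with overlap. These divisions were made after the windows were seen and carry no test. The 3′ part shares most of its sequence with the window 40 to 60 kb away, already singled out, so its lack of overlap is no separate result. How often other regions of like size lack overlap was not counted.

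As a share of the reads 2 to 400 kb away, the whole stretch held 16.6%, 17.0% and 15.4% in BC44 and 16.7%, 21.7% and 18.9% in HC11. The means were 16.3% ± 0.835 and 19.1% ± 2.49 (SD, n = 3 each), and the lines overlapped through replicate 1 (two-sided exact permutation p = 0.2, adjusted p = 0.233). The difference of 2.78 percentage points was 0.149 points in the replicate 1 pair and 4.09 points in replicates 2 and 3, and 1.48 points without HC11 replicate 2.

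The split of the stretch's own reads differed in direction between its parts. The Wnt4 body took 53.7% ± 2.11 of them in BC44 and 50.9% ± 1.47 in HC11 (SD, n = 3 each, exact p = 0.2, adjusted p = 0.233), with overlap. Without BC44 replicate 2 the difference of -2.76 points was -1.57. The gap took 21.9%, 22.3% and 24.0% in BC44 and 20.7%, 20.4% and 17.9% in HC11, all lower. Cdc42 took 17.2%, 14.2% and 17.4% in BC44 and 19.2%, 18.8% and 22.1% in HC11, all higher. Counting captured ends in place of reads turned the Cdc42 difference to -1.66 points, also with the smallest exact permutation p of 0.1. Beyond Cdc42 the shares were 7.94%, 7.54% and 6.66% in BC44 and 10.3%, 8.21% and 9.63% in HC11, all higher. Each of the last 3 differences, -3.01, 3.78 and 2.00 percentage points, had the smallest two-sided exact permutation p the design allows, 0.1 (adjusted p = 0.175). The shares sum to 100%, so these values are not independent of each other.

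**Figure D4:**
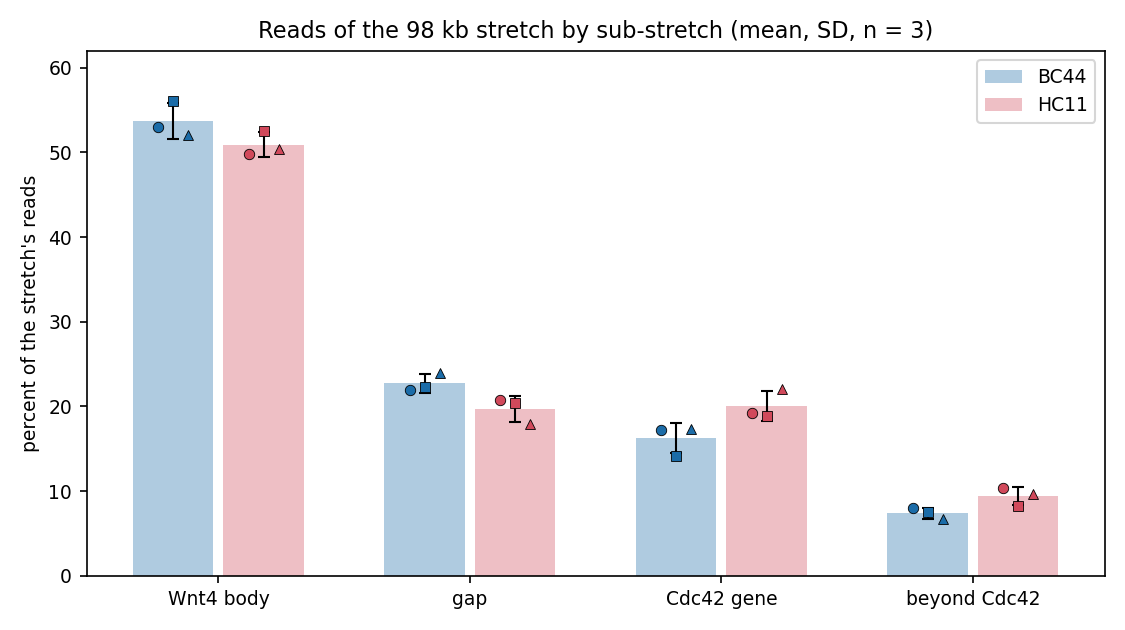
Percent of the reads of the stretch in its 4 parts, as bars for the mean of BC44 (blue) and HC11 (red), error bars for the SD and points for the 3 libraries of each line. HC11 points lie below BC44 in the gap and above it in Cdc42 and beyond, while the lines overlap in the Wnt4 body.

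Tested as annotated blocks beside all other genes and gaps within 400 kb, none of the 4 parts passed (0 called and 0 with an unadjusted p under 0.05 in edgeR's quasi-likelihood test, 0 called by DESeq2, against 3.57% of 28 blocks called). Of the 28 blocks, 3 had an unadjusted p under 0.05 in edgeR. The log2 fold changes were -0.050 (SE 0.15) for the Wnt4 body, -0.18 (SE 0.19) for the gap, 0.33 (SE 0.20) for Cdc42 and 0.36 (SE 0.26) beyond it, with adjusted p of 0.812 for the first and 0.650 for the others. Without BC44 replicate 2 Cdc42 had 0.21, and without single libraries the gap ran from -0.33 (BC44 replicate 1) to -0.12 (HC11 replicate 3). Library sizes without TMM scaling moved the median of all blocks up by 0.19, which turned the first 2 to 0.15 and 0.022 and gave 0.53 and 0.55 for the last 2. Cdc42 and the block beyond it were 2 of the 3 blocks in which HC11 lay above BC44 without overlap, 10.7% of all blocks, and 14.3% of blocks had no overlap in either direction.

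The lines overlapped in the share of listed ends with reads. It was 73.6%, 70.3% and 63.0% in BC44 and 67.9%, 63.8% and 66.7% in HC11 (two-sided exact permutation p = 0.5, adjusted p = 0.5). Thinned to 93823 reads outside 2 kb in each library, the expected shares were 62.4% ± 4.17 and 62.5% ± 1.60 (SD, n = 3 each). Without thinning they were 69.0% ± 5.41 and 66.1% ± 2.09.

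At single ends 159 of the 246 members had at least 10 reads in at least 3 libraries and were tested, a filter that can keep an end through the line in which it is high. None passed (0 called, 2 with an unadjusted p under 0.05, smallest edgeR quasi-likelihood adjusted p 1.000), against 0% of the 1181 ends tested. Of those 1181 ends, 25 had an unadjusted p under 0.05 in edgeR. The median standard error of the log2 fold changes of the 159 members was 1.48, so only very large differences were detectable there. The lines did not overlap at 13 of the 159 ends, against 8.04% of all ends tested. HC11 was above in 10, against 3.81% of all ends, and BC44 in 3, against 4.23%. The median log2 fold change was 0.19, against -0.034 over all ends tested.

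The lowest unadjusted p belonged to the end at 136926602, 94.5 kb away in intergenic sequence beyond Cdc42. It had 8, 1 and 0 reads in BC44 and 330, 127 and 577 in HC11. All 3 HC11 libraries were high, including the shallowest, and the 3 BC44 libraries were nearly empty. The log2 fold change was 7.77 (SE 1.95) with an edgeR adjusted p of 1.000. DESeq2 gave 8.12 (SE 1.44) and an adjusted p of 6.68e-06, and called this end alone among the 154 members it tested. Over all ends on both sides it called 13 of 1117. The end met the filter only through the 3 HC11 libraries, where it is high, so this call gives no independent support.

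The end at 136892039 lies in the Cdc42 exon that holds the start codon, 59.9 kb away. It had 163, 164 and 404 reads in BC44 and 1512, 73 and 1131 in HC11. Scaled to depth these were 379, 346 and 731 RPM against 2647, 1358 and 3319, without overlap, with a log2 fold change of 2.25 (SE 0.80). The end at 136922104, beyond Cdc42, had 0, 0 and 27 reads in BC44 and 1094, 0 and 689 in HC11, so it was empty in 1 library of HC11 and in 2 of BC44. The end at 136874691, in the gap 42.6 kb away, had 15, 1 and 0 reads in BC44 and 21, 36 and 60 in HC11. The edgeR adjusted p was 1.000 at each of these 3 ends, and the DESeq2 adjusted p were 0.0671, 0.776 and 0.468.

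Partners on one GATC site could differ widely. Of the 67 sites with both ends listed, 13 had both captured in all 6 libraries, and at these the higher mean share exceeded the lower by a median of 1.79-fold and by over 3-fold at 5. At 6 sites 1 end had reads in all libraries and its partner in none. Between libraries the profile over the 246 ends, as log2(RPM + 1), correlated at 0.595 to 0.749 (Pearson's r) within a line and at 0.636 to 0.791 between lines, 2 ranges that overlap. These correlations run across ends that share their distance from the viewpoint.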

How the data were processed

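The members and tests were chosen with earlier results of these data known. Reads were mapped to mm9 by the authors with a public 4C pipeline (deWitLab, defaults), per the labels' protocols. The deposited values are read counts per DpnII fragment end, not normalised, 1 table per library. Fragments, sites and genes came from the mm9 (NCBIM37) sequence and GENCODE M1. Positions are 1-based.

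Reads were summed over the stretch, its parts, windows of 10 kb and blocks of merged coding genes and gaps, from 2 to 400 kb on both sides. Lines were compared by exact permutation over 20 relabellings (smallest p 0.1), and across windows, blocks and ends by edgeR 4.0.16 (quasi-likelihood, TMM, at least 10 reads in 3 libraries, Benjamini-Hochberg adjusted p under 0.05). DESeq2 1.42.0 was an alternative. Scripts ran in R 4.3.3 and Python 3.11.15 and the count test was tested on simulated data. Named were the 8 ends with the highest mean share, the 4 with the lowest p and those nearest to the gene limits.

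Same-numbered libraries deviated together over windows (correlations 0.157, 0.315 and 0.362) and less over single ends (0.209, 0.0835 and 0.0587). Every window value exceeded 0.1, so a fit with the replicate number as a block was added and is given where it changes a call. The reported exact permutation tests between the lines and the main edgeR fit did not pair the libraries. With the replicate number as a block, the exact permutation p was 0.25 for the shares of the stretch and its parts. It was also 0.25 for the mirror ratio, and 0.5 for captured ends. A p of 0.25 is the smallest that 3 pairs allow, so it could not have been lower. For the shares of the stretch and its parts and for the mirror ratio, all pairs differed in the same direction.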

Additional observations from a re-analysis of the deposited data

Results flagged for a closer look

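Wnt4 itself has 1 listed end that the 2 kb limit left out of all comparisons, at 136833767, 1.66 kb from the viewpoint end in the first intron. It held reads in every library, 429, 6 and 14 in the BC44 libraries and 90, 7 and 114 in those of HC11, each above the 3 reads that a count of 0 allows. It was singled out because it lies outside the measured range.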

How the results depend on the processing

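Of 335 recomputed values, 304 kept their direction and side of the threshold. Counting captured ends in place of reads reversed the difference in the stretch share to -0.0781 points, in the Wnt4 body share to 1.42 points, in the Cdc42 share to -1.66 points, in the log2 mirror ratio to -0.00022 and in the 40 to 60 kb window to -0.036. Thinning turned the difference in captured ends to 0.0864 points. The mean mirror ratio was -1.03 to -0.86 without single libraries and -0.92 in replicates 2 and 3, where too few libraries remain to pass. In the stretch, 1 window was called with 20 kb windows and 1 end by DESeq2. Leaving out single libraries gave log2 fold changes of -0.17 to 0.54 at 2 to 10 kb, -0.13 to 0.46 at 70 to 80 kb and -0.17 to 0.033 in the Wnt4 block; without TMM the Wnt4 block had 0.15 and the gap 0.022. Over all features, replicates 2 and 3 alone, leaving out HC11 replicate 1 and 20 kb windows each called 1 window where the main setting called 0, and DESeq2 called 13 ends against 0. The 1 block called fell to 0 without TMM, with the replicate block, in replicates 2 and 3, and without BC44 replicate 2 or 3 or HC11 replicate 1 or 2. Beside this and the 3 windows of 20 kb called with it, the replicate block changed no other call. Alternatives of the 20 kb window were chosen after seeing the data; the cause of these changes was not tested, except that 5 libraries cannot reach the threshold of the sign-flip test. HC11 replicate 2, with 11670 reads in the stretch, limits what single ends can show.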
